A study of Mus musculus with 25 samples.

Results

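The genes described here are 39 leukocyte and inflammation genes measured by RNA sequencing in mouse hearts. They were taken from a list of gene symbols, and all 39 were found among the 56941 genes of the deposited count table. By role they comprise 18 macrophage and monocyte genes, 3 genes of antigen presentation, 3 neutrophil genes, 5 lymphocyte genes and 10 chemokine and cytokine genes. The study asked how lactate metabolism takes part in cardiac hypertrophy, in wild-type (WT) mice and in mice labelled MCT1KO. Slc16a1 encodes MCT1, a membrane carrier of lactate and pyruvate. The 25 hearts formed 6 groups. Hearts of animals with no pump numbered 4 for WT and 3 for MCT1KO. Hearts of animals with a saline pump numbered 6 for WT and 4 for MCT1KO. Hearts of animals given Ang/PE, the neurohormonal agonists used to bring on hypertrophy, numbered 3 for WT and 5 for MCT1KO. Strain, age, sex, doses, infusion time and the allele or Cre driver behind the MCT1KO label are not given in the sources used here. The labels give 1 library per heart and a replicate number, and no litter or batch.

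The heart holds a standing population of resident macrophages that clear dead cells and debris and carry the receptors Cd163, Mrc1, Folr2, Lyve1 and Timd4. Monocytes that enter from the blood carry Ccr2, the receptor for the chemokines Ccl2 and Ccl7. C1qa, C1qb and C1qc encode the 3 chains of C1q, the recognition unit of classical complement, and are made largely by tissue macrophages. H2-Aa, H2-Ab1 and Cd74 encode the 2 chains and the invariant chain of major histocompatibility complex class II, which present peptides to CD4+ T cells. S100a8 and S100a9 are abundant in neutrophils. Tnf, Il1b and Il6 encode inflammatory cytokines that are kept low in resting tissue.

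Total counts ranged from 12216704 to 24880683 per heart, and the 39 genes together took 0.0636% to 0.126% of them. Values below are CPM, read counts scaled to a normalised library size of 1000000, and log2 fold changes come from 1 edgeR fit over all 25 hearts. Called means an adjusted p under 0.05 over the 17682 genes tested, of which 36 were members. S100a9, Nkg7 and Il6 had too few counts to be tested. Slc16a1 had 132 to 223 CPM in the 12 hearts labelled MCT1KO and 150 to 249 CPM in the 13 WT hearts, with log2 differences of -0.33 to -0.02 within treatments and none called. The counts therefore do not show the knockout, and "MCT1KO" below is the label. The atrial muscle genes Myl4, Myl7 and Sln summed to at most 5.73 CPM in the 15 hearts without a saline pump, whereas 8 of the 10 saline hearts lay above all of these, reaching 3679 CPM. Xist, the RNA of the inactive X chromosome, was below 1 CPM in 12 hearts, which were 2 of 4 WT and 3 of 3 MCT1KO without a pump, 5 of 6 WT and 1 of 4 MCT1KO with saline, and 0 of 3 WT and 1 of 5 MCT1KO with Ang/PE.

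**Figure D1:**
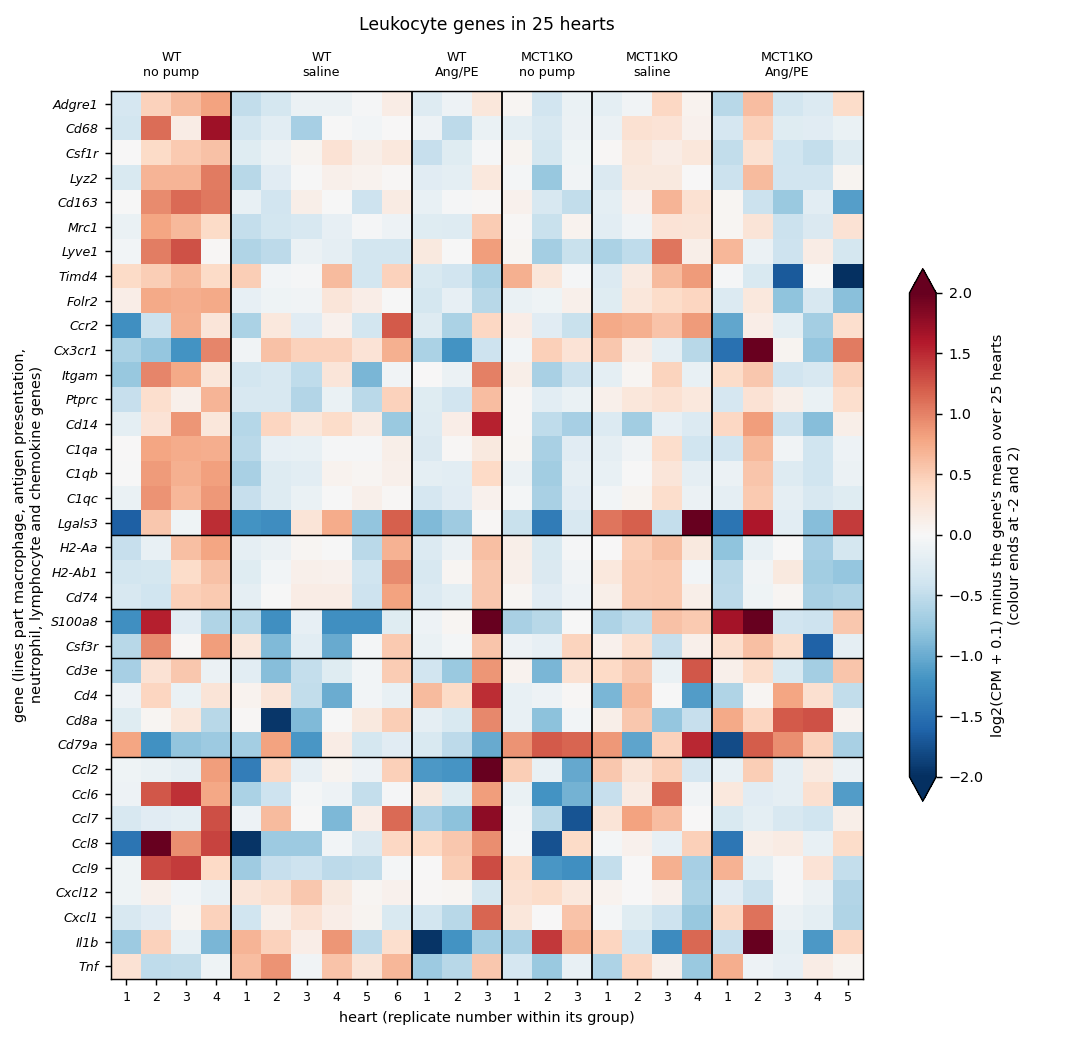
Heat map of the 36 tested members (rows, grouped by role) in the 25 hearts (columns, grouped by genotype and treatment). Colour gives log2(CPM + 0.1) minus that gene's mean over the 25 hearts, from blue (lower) to red (higher), with the colour scale ending at -2 and 2. In Cd163, Mrc1 and the C1q genes, WT no-pump replicates 2 to 4 stand above replicate 1 and above most other hearts.

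In WT hearts, 7 macrophage genes and 3 CC chemokine genes were lower with a saline pump than with no pump. The macrophage genes were Cd68, Cd163, Mrc1, Folr2, C1qa, C1qb and C1qc, with 1.52-fold to 2.10-fold lower levels. The chemokine genes were Ccl6, Ccl8 and Ccl9, with 2.33-fold to 3.90-fold lower levels, the 3.90-fold of Ccl8 becoming 2.18-fold without WT no-pump replicate 2. These 10 were 27.8% of the 36 members tested, all in the lower direction. Over all genes tested in this comparison 6.61% were called, and 4.22% were called lower. The members were chosen with earlier results of these data known and share their hearts, so these shares only describe the list. No member was called higher. Hearts are bulk samples, in which fewer cells of a type and less RNA per cell cannot be told apart.

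Upstream sequence of 6 of the 10 genes is printed here because these genes fell together, 3 of the 6 with a match to the motif searched and 3 without. The windows are the 250 bases before the RefSeq start on build GRCm38.p6, in the direction of transcription. Of the 10 genes, 9 had a window in the table used, and C1qa had none. The motif searched was GAGGAA, or TTCCTC on the other strand, the core that the myeloid transcription factor PU.1 is known to recognise, and capitals mark each match.
Mrc1 (chr2:14229164-14229413, plus strand): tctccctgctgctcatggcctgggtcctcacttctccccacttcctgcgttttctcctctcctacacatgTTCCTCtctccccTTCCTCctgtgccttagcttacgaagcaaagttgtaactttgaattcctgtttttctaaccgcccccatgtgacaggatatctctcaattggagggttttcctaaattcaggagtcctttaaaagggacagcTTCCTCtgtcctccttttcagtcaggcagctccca
C1qb (chr4:136886201-136886450, minus strand): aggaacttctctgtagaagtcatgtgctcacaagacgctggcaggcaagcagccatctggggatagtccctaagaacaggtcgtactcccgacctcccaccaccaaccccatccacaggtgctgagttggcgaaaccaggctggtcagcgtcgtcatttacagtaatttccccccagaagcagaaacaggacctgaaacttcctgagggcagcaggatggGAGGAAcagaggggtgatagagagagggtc
Ccl8 (chr11:82114935-82115184, plus strand): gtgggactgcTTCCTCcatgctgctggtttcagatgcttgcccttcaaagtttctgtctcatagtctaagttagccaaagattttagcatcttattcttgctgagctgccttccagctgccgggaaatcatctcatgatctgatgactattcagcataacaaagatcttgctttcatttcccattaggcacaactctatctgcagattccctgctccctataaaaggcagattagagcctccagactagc
Cd163 (chr6:124304401-124304650, plus strand): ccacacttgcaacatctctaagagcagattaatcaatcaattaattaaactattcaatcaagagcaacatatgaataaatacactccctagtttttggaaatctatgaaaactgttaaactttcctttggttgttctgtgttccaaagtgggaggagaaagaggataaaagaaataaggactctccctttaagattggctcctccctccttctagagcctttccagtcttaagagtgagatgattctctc
Ccl6 (chr11:83593088-83593337, minus strand): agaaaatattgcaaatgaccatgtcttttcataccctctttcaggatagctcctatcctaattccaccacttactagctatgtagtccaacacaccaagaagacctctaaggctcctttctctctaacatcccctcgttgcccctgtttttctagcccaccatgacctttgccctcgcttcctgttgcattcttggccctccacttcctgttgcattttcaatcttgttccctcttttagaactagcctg
Ccl9 (chr11:83578637-83578886, minus strand): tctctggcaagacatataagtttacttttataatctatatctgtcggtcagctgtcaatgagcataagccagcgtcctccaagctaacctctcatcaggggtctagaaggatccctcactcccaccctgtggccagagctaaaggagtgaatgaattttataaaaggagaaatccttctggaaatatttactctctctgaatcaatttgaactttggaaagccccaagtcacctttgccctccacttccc
The motif occurred in 5 of the 10 windows of these genes, Folr2 having 2 windows. It occurred 3 times in the Mrc1 window and once each in those of Cd68, C1qb, C1qc and Ccl8. Cd163, Ccl6, Ccl9 and both windows of Folr2 had no match, so it was not shared by the set. Of all 32851 windows of this length, 23.3% held the motif. A match is a description of the letters and not a measured binding site.

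Cd68 (ENSMUSG00000018774), a lysosomal protein of macrophages, had 5.19, 14.7, 7.39 and 21.9 CPM in the WT hearts without a pump, and a median of 6.12 (4.17 to 6.76) CPM in the 6 WT saline hearts. Replicate 1 without a pump lay inside the saline range and the other 3 hearts lay above it. The log2 fold change was -1.07 (SE 0.26, adjusted p = 0.0204). Cd163 (ENSMUSG00000008845), the scavenger receptor for haemoglobin bound to haptoglobin, had 29.1, 56.5, 63.9 and 60.9 CPM without a pump. With saline its median was 27.6 (22.01 to 32.6) CPM. Again only replicate 1 overlapped the saline hearts, and the log2 fold change was -0.94 (SE 0.21, adjusted p = 0.0158).

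Mrc1 (ENSMUSG00000026712), the mannose receptor, had 57.7, 109.7, 99.8 and 82.6 CPM in the WT hearts without a pump and a median of 53.7 (45.5 to 62.4) CPM with saline. Its log2 fold change was -0.70 (SE 0.18, adjusted p = 0.0274). Folr2 (ENSMUSG00000032725), a folate receptor of resident macrophages, had 8.75, 13.5, 13.3 and 13.5 CPM without a pump. In the saline hearts its median was 7.79 (7.15 to 9.48) CPM, and its log2 fold change was -0.60 (SE 0.17, adjusted p = 0.0350). For both receptors 3 of the 4 hearts without a pump stood above every saline heart.

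In each of the 3 C1q genes replicate 1 was again the lowest heart without a pump. C1qa (ENSMUSG00000036887) had 28.3, 49.0, 47.5 and 46.9 CPM without a pump and a median of 26.6 (19.3 to 30.6) CPM with saline. C1qb (ENSMUSG00000036905) had 31.2, 56.4, 51.1 and 55.1 CPM without a pump and a median of 29.5 (19.8 to 33.6) CPM with saline. C1qc (ENSMUSG00000036896) had 26.6, 54.3, 46.2 and 53.3 CPM without a pump and a median of 27.8 (21.04 to 31.3) CPM with saline. Their log2 fold changes lay close together, at -0.72 (SE 0.20, adjusted p = 0.0329) for C1qa, -0.76 (SE 0.19, adjusted p = 0.0240) for C1qb and -0.74 (SE 0.18, adjusted p = 0.0217) for C1qc.

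Ccl6 (ENSMUSG00000018927), a chemokine of myeloid cells, had 8.48, 21.5, 25.1 and 15.6 CPM in the WT hearts without a pump and a median of 7.62 (5.81 to 8.97) CPM with saline. The log2 fold change was -1.22 (SE 0.32, adjusted p = 0.0296). Ccl9 (ENSMUSG00000019122), a related CC chemokine, had 6.05, 16.3, 17.03 and 8.47 CPM without a pump and a median of 4.59 (3.89 to 6.22) CPM with saline, a log2 fold change of -1.32 (SE 0.35, adjusted p = 0.0293). Ccl8 (ENSMUSG00000009185), another CC chemokine, was the sparsest of the called members, with 10 to 199 counts without a pump and 5 to 39 counts with saline. Its levels were 0.451, 9.70, 2.80 and 3.75 CPM without a pump and a median of 0.975 (0.291 to 1.91) CPM with saline. Its log2 fold change was -1.96 (SE 0.52, adjusted p = 0.0313), and replicate 2 without a pump was the highest heart of all 25. Ccl6 and Ccl9 are similar in sequence, and how reads shared between close family members were counted is not given in the sources used here.

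In all 10 genes WT no-pump replicate 1 lay inside the range of the WT saline hearts, and replicates 2, 3 and 4 lay above all 6 of them. Replicates 2 to 4 also lay above every MCT1KO heart without a pump in all 10 genes. Against WT Ang/PE, MCT1KO saline and MCT1KO Ang/PE hearts, each lay above the whole group in 7 to 10 of the 10 genes. These 3 WT no-pump hearts thus stood high in most of the 10 genes against every other group, and not against saline alone. Replicate 4 lay above all WT Ang/PE hearts in 7 genes and inside their range in 3. The 10 genes were called with these same hearts, so their height against other groups follows in part from that choice. Replicate 1 was also the most deeply sequenced heart, with 24880683 counts, and it had the highest ventricular muscle gene sum of the 4, at 50352 CPM against 34929 to 39030 CPM. Summed over the 18 macrophage genes, replicate 1 held 399 CPM and replicates 2 to 4 held 727, 720.2 and 774 CPM. The sums were 327 to 475 CPM in WT saline hearts and 310 to 446 CPM in MCT1KO hearts without a pump. Sums are weighted to abundant genes such as Lyz2.

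**Figure D2:**
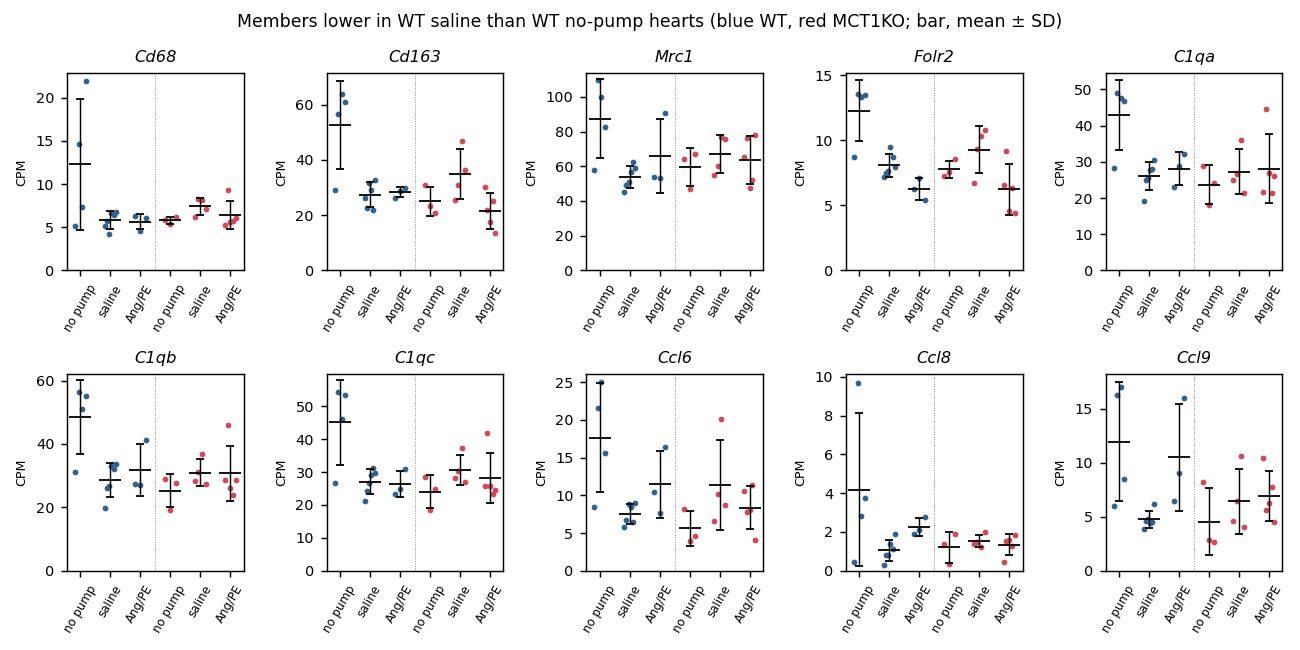
CPM on linear axes from 0 for the 10 members called between saline and no pump in WT hearts, with 1 point per heart (blue WT, red MCT1KO) and bars for the mean and SD of each of the 6 groups. In each gene 3 of the 4 WT hearts without a pump lie above all 6 WT saline hearts.

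Without WT no-pump replicate 2, 3 or 4 the number of called members was 1, 1 and 0, and without replicate 1 it was 15. Over all genes these fits called 439, 60 and 224, and 2234 without replicate 1, so overall calling moved as well. Cd68 had a log2 fold change of -0.64 without replicate 4. Leaving out WT saline replicate 1, 2, 3, 4, 5 or 6 gave 6, 4, 5, 8, 5 and 9 called members. Over all genes each of these fits called at most 898, against 1168 in the fit reported, so calling over all genes fell as well. Markers of other tissue moved with this contrast, and all 3 atrial genes were called higher with saline. Of the 4 smooth muscle and pericyte genes only Pdgfrb was called, also higher. Their sum went the other way, at 901 to 1027 CPM without a pump and 782 to 900 CPM with saline. Ventricular muscle sums were 45419 to 55769 CPM in the saline hearts, above no-pump replicates 2 to 4, with 0 of 5 genes called. Mitochondrially encoded genes took 14.8% to 18.4% of counts without a pump and 8.94% to 14.8% with saline. With them removed 11 members were called, among 1127 genes in all. The summed adipocyte genes were 247 to 375 CPM without a pump and 156 to 229 CPM with saline, also with 0 of 5 called. Adipoq, Plin1, Cidec and Ucp1 made up little of that sum and went the other way. Their group means were 0.04 to 0.18 CPM without a pump and 1.22 to 2.71 CPM with saline, where each SD exceeded its mean. The median log2 fold change of the 5 adipocyte genes was 3.93. With the atrial and adipocyte scores as covariates the 10 genes had log2 fold changes of -2.40 to -0.50 and 0 were called, and over all genes 0 were called too. With the 5 atrial-positive WT saline hearts left out 0 were called, at -3.82 to -0.79 and with 1 WT saline heart remaining. With Xist as a covariate 2 members, Cd68 and Cd163, were called, among 547 genes in all. Among the hearts without Xist alone the 10 changes were -1.27 to -0.42, with 0 members called and 144 genes called in all. The WT no-pump hearts in that fit were replicates 1 and 4, and replicate 1 lay inside the saline range in all 10 genes.

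**Figure D3:**
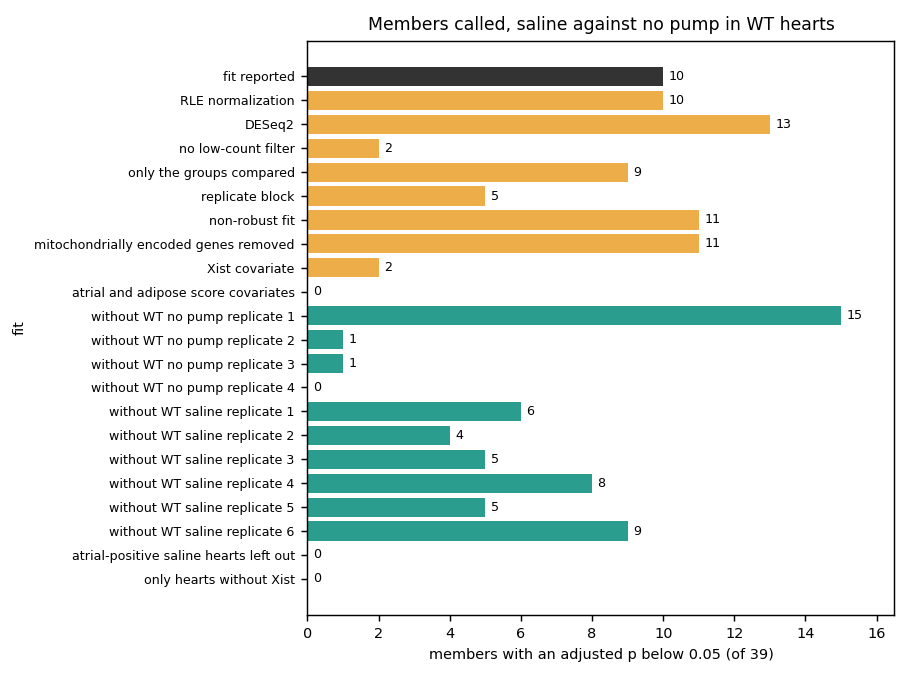
Number of the 39 members called between saline and no pump in WT hearts (bar length) in the fit reported (black), in other fits (yellow), without 1 heart at a time (green) and in the pair of fits on selected hearts (bottom, at 0). The number ranged from 0 to 15 and was 10 in the fit reported.

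The other 11 macrophage genes were not called in this comparison. Lyve1, a hyaluronan receptor of vessel-associated macrophages and of lymphatic vessels, fell short of the threshold, with 29.9 ± 13.6 CPM (SD, n = 4) without a pump and 14.6 ± 1.92 CPM (SD, n = 6) with saline (log2 fold change -1.03, adjusted p = 0.0506). Lyz2, lysozyme, had 178 ± 61.0 and 111 ± 17.9 CPM in the same groups (log2 fold change -0.68, adjusted p = 0.0695). Reads of Lyz2 may be shared with the close copy Lyz1. Adgre1, which encodes the F4/80 antigen, had 24.6 ± 7.40 and 16.3 ± 2.59 CPM (log2 fold change -0.59, adjusted p = 0.0898). Csf1r, the receptor on which macrophages depend for survival, had 81.8 ± 13.7 and 65.1 ± 8.97 CPM (log2 fold change -0.33, adjusted p = 0.154). By sign, 16 of the 18 macrophage genes were negative, with a median log2 fold change of -0.64, and over all genes tested the median was 0.00.

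The same step from no pump to saline had no called member in MCT1KO hearts, where 0.00566% of all genes were called. At an unadjusted p under 0.05 in the edgeR fit there were 4 members, 1 lower and 3 higher, which was 11.1% against 12.1% of all genes. DESeq2 called 0 members and 212 genes in all. Of the 18 macrophage genes 17 had a positive sign, with a median log2 fold change of 0.29. The 10 genes that fell in WT hearts had log2 fold changes of 0.17 to 1.01 here, with adjusted p from 0.311 to 0.897. With Xist as a covariate C1qa, Ccl8 and Ccl9 turned negative, and Ccl8 also did with the atrial and adipocyte covariates and without MCT1KO no-pump replicate 2. In Cd163 the MCT1KO hearts held 30.9, 23.3 and 20.6 CPM without a pump and 25.6, 30.9, 46.9 and 36.2 CPM with saline, so that these groups overlapped. In Ccl6 they held 8.24, 3.92 and 4.65 CPM without a pump and 6.55, 10.2, 20.1 and 8.67 CPM with saline, again with overlap.

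The difference between the genotypes in this step was tested as an interaction, and no member passed. Over all genes 0.00566% were called. The 10 genes had interaction estimates of 0.86 to 2.29 on the log2 scale, each with an unadjusted edgeR p under 0.05 and with adjusted p of 0.112 to 0.187. Ccl6 had the smallest p of the chemokine and cytokine genes in any comparison, with an interaction of 2.24 (SE 0.52, adjusted p = 0.112). At an unadjusted p under 0.05 there were 18 of the 36 members and 17.2% of all genes. DESeq2 called 8 members, which were Cd68, Cd163, Lyve1, C1qb, C1qc, Ccl6, Ccl9 and, in the opposite direction, Cxcl12, among 369 genes that it called in all. Leaving out WT no-pump replicate 1 gave 11 called members among 663 genes, and leaving out MCT1KO no-pump replicate 1 gave 2 among 69. The WT no-pump hearts enter this estimate, the step in WT hearts and the genotype comparison without a pump. They also enter Ang/PE against no pump in WT hearts, so these are not separate pieces of evidence.

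**Figure D4:**
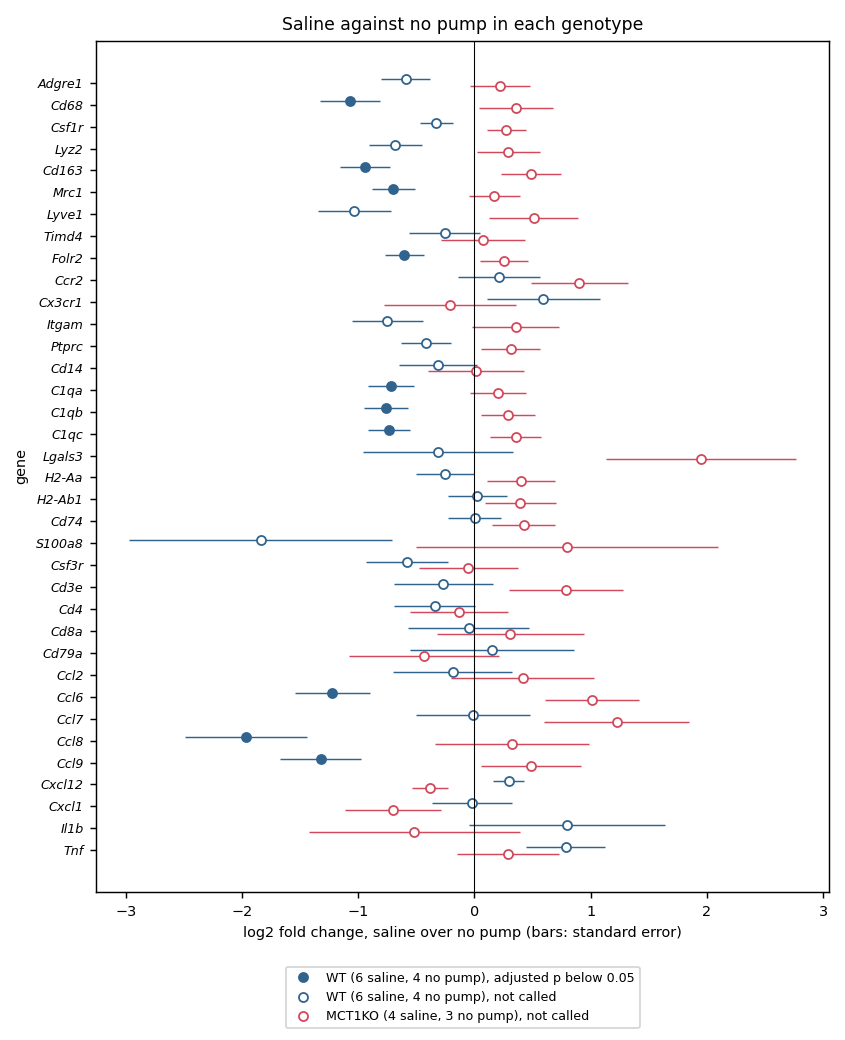
Log2 fold change from no pump to saline with its SE (bars) for each of the 36 tested members (rows, ordered by role), in WT hearts (blue) and in MCT1KO hearts (red), with filled points for called members. In WT hearts 16 of 18 macrophage genes are negative and in MCT1KO hearts 17 of 18 are positive, with 10 members called in WT and 0 in MCT1KO.

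Hearts labelled MCT1KO and WT hearts were compared within each treatment, and no member was called in any of the 3 comparisons, each with a background of 0% of all genes. Without a pump 31 of the 36 members were lower in MCT1KO, the median log2 fold change was -0.54, and 16 had an unadjusted edgeR p under 0.05 (14 lower, 2 higher), which was 44.4% of members and 12.2% of all genes. The 10 genes above lay at -1.76 to -0.56, with adjusted p of 0.227 to 0.318. DESeq2 called 1 member, Lyz2, among 104 genes in all. Lyz2 had 178 ± 61.0 CPM (SD, n = 4) in WT and 99.0 ± 25.3 CPM (SD, n = 3) in MCT1KO. In Ccl9 the MCT1KO hearts held 8.19, 2.81 and 2.68 CPM, and in C1qb 29.0, 19.2 and 27.6 CPM. These values lay below WT replicates 2 to 4 in both genes, while WT replicate 1 held 6.05 CPM of Ccl9 and 31.2 CPM of C1qb.

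With saline 3 members had an unadjusted p under 0.05 between the genotypes, 8.33% of them against 17.05% of all genes. Cd3e, the epsilon chain of the T cell receptor complex, was one, at 0.363 ± 0.152 CPM (SD, n = 6) in WT and 0.683 ± 0.315 CPM (SD, n = 4) in MCT1KO, and it had 3 to 19 counts in any heart. Cxcl12 and Tnf were the others, with log2 fold changes of -0.34 and -0.77. DESeq2 called 0 members in this comparison and 145 genes in all. With Ang/PE there were also 3, namely Cx3cr1, Cd4 and Il1b, against 6.92% of all genes. There DESeq2 called 0 members and 4 genes in all. Cx3cr1, the fractalkine receptor of monocytes and macrophages, had 1.26 to 2.22 CPM in WT and 1.01 to 12.1 CPM in MCT1KO hearts. Il1b had 0, 1 and 2 counts in WT and 2, 50, 3, 1 and 7 counts in MCT1KO hearts, so that MCT1KO replicate 2 set its level.

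Between Ang/PE and saline in MCT1KO hearts 4.46% of all genes were called and 0 members were. The 8 members with an unadjusted edgeR p under 0.05 were all lower with Ang/PE: Csf1r, Cd163, Timd4, Folr2, Ccr2 and the 3 genes of antigen presentation. Their share of the members, 22.2%, lay near the 20.4% of all genes at that p. The smallest adjusted p was 0.0702, for Folr2 (log2 fold change -0.58), and Cd163 had -0.69 (adjusted p = 0.0818).

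Cd74 (ENSMUSG00000024610), the invariant chain that escorts class II molecules, had 92.0, 121, 122 and 92.0 CPM in the MCT1KO saline hearts and 58.6, 79.5, 86.9, 54.1 and 55.8 CPM with Ang/PE. All 5 Ang/PE hearts lay below all 4 saline hearts, with a log2 fold change of -0.67 (SE 0.24, adjusted p = 0.108), which was not called. H2-Aa had 44.4 ± 8.21 CPM (SD, n = 4) with saline and 27.0 ± 6.21 CPM (SD, n = 5) with Ang/PE (log2 fold change -0.71, adjusted p = 0.119). H2-Ab1 had 32.8 ± 6.07 and 20.9 ± 6.33 CPM (log2 fold change -0.65, adjusted p = 0.172). In WT hearts Cd74 overlapped between saline, at a median of 88.8 (63.5 to 148) CPM, and Ang/PE, at 70.0, 74.1 and 123 CPM.

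Timd4 (ENSMUSG00000055546), a phosphatidylserine receptor of long-lived resident macrophages, had 1.21, 1.70, 2.37 and 2.77 CPM in MCT1KO saline hearts and 1.46, 1.19, 0.398, 1.495 and 0.300 CPM with Ang/PE (log2 fold change -1.08, adjusted p = 0.0747). The groups overlapped, and the gene had 5 to 51 counts in any heart. Ccr2 had 5.53 ± 0.449 CPM (SD, n = 4) with saline and 2.85 ± 1.10 CPM (SD, n = 5) with Ang/PE. Markers of other tissue fell in the same comparison: 3 of 3 atrial genes, 4 of 5 adipocyte genes, the mast cell gene Mcpt4 and the mesothelial gene Upk3b were called lower with Ang/PE. With the atrial and adipocyte scores as covariates 0 members and 0 of all genes were called. DESeq2 called 3 members, Cd163, Timd4 and Folr2, among 1200 genes in all. Leaving out MCT1KO saline replicate 1, Ang/PE replicate 1 or Ang/PE replicate 2 gave 2, 1 and 2 members. Over all genes the fits without 1 heart called 39 to 1541.

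In WT hearts Ang/PE against saline gave 0 called members and 0.0170% called over all genes. The 5 members with an unadjusted p under 0.05 were 13.9% of those tested, below the 19.1% of all genes, and 4 were higher: Lyve1, S100a8, Cd4 and Ccl9. Ccl9 had 6.44, 9.08 and 16.01 CPM with Ang/PE, all above the highest saline heart at 6.22 CPM (log2 fold change 1.13, adjusted p = 0.125). Lyve1 had 14.6 ± 1.92 CPM (SD, n = 6) with saline and 24.4 ± 7.82 CPM (SD, n = 3) with Ang/PE, a log2 fold change of 0.74. Cxcl12 was the member with a lower value, at -0.33. Fitting only these 9 hearts gave 3 called members, Lyve1, Cx3cr1 and Ccl9, among 945 genes in all. DESeq2 on all hearts gave 0 members among 649 genes. The test of whether the Ang/PE step differed between the genotypes called 0 members and 0% of all genes. It had 5 members with an unadjusted edgeR p under 0.05, 13.9% against 13.5% of all genes. DESeq2 called 0 members and 11 genes in all.

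Against hearts with no pump, Ang/PE hearts had no called member in either genotype. The WT comparison rests on the same 4 WT no-pump hearts as above. In WT hearts 0% of all genes were called and 10 members had an unadjusted edgeR p under 0.05, 27.8% against 9.02% of all genes, of which 9 were lower. Folr2 had 6.26, 7.13 and 5.43 CPM with Ang/PE, below all 4 WT hearts without a pump (log2 fold change -0.97, SE 0.21, adjusted p = 0.264). DESeq2 called this gene, among 35 in all. In MCT1KO hearts 0.503% of all genes were called and 4 members had an unadjusted p under 0.05, 11.1% against 13.1% of all genes. Cxcl12 (ENSMUSG00000061353), a chemokine made by stromal and vessel cells that holds leukocyte precursors in place, had 289, 302 and 271 CPM in MCT1KO hearts without a pump and 201, 175, 229.7, 216 and 155 CPM with Ang/PE. These groups did not overlap (log2 fold change -0.56, SE 0.15, adjusted p = 0.0830), and DESeq2 called the gene, among 395 in all.

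**Figure D5:**
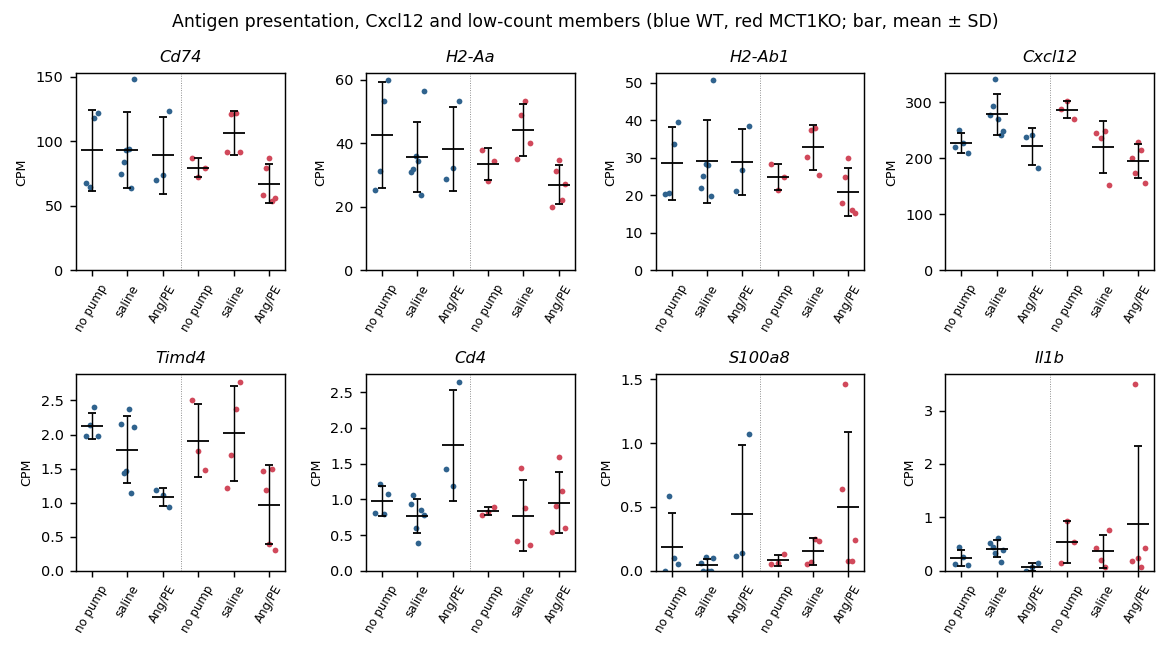
CPM on linear axes from 0 for 8 members that were not called, with 1 point per heart (blue WT, red MCT1KO) and bars for the mean and SD of each of the 6 groups. For Cd74 all 5 MCT1KO Ang/PE hearts lie below all 4 MCT1KO saline hearts, and for Il1b 1 MCT1KO Ang/PE heart, at 3.49 CPM, stands above the rest.

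Neutrophil and lymphocyte genes had few counts, and S100a8, S100a9, Cd8a, Cd79a and Nkg7 reached 0 in at least 1 heart. S100a8 (ENSMUSG00000056054) had 0 to 2 counts in the WT saline hearts and 2, 2 and 15 counts with Ang/PE, an adjusted p of 0.147. Only replicate 3 stood above the level of 3 counts taken as the floor, so no fold is given. It was at 0 in 4 of the 25 hearts, and a count of 0 allows up to 3 counts per library, which is 0.121 to 0.246 CPM of the unscaled totals. S100a9 had at most 23 counts. Csf3r, the granulocyte colony-stimulating factor receptor, had 0.449 to 3.12 CPM over all hearts and was not called.

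Cd4 (ENSMUSG00000023274), the co-receptor of helper T cells, had a median of 0.818 (0.395 to 1.07) CPM in WT saline hearts and 1.43, 1.19 and 2.64 CPM with Ang/PE. The groups did not overlap, on 7 to 17 and 17 to 37 counts, and the log2 fold change was 1.18 (SE 0.37, adjusted p = 0.101). In MCT1KO hearts Cd4 had 0.423, 1.44, 0.875 and 0.354 CPM with saline and 0.549, 0.908, 1.59, 1.12 and 0.600 CPM with Ang/PE, so those groups overlapped. Cd8a, the co-receptor of cytotoxic T cells, had at most 11 counts, the B cell gene Cd79a at most 15 and Nkg7, of cytotoxic granules, at most 17. None of the lymphocyte genes was called in any of the 11 comparisons.

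The inflammatory cytokines were low in every group. Il6 was at 0 counts in 11 hearts and had at most 7. Tnf had 4 to 16 counts, with 0.402 ± 0.138 CPM (SD, n = 4) in WT hearts without a pump and 0.702 ± 0.178 CPM (SD, n = 6) with saline (log2 fold change 0.78, adjusted p = 0.153). Ccl2, the main ligand of Ccr2, had 5 to 60 counts, and Ccl7 had 4 to 43, and neither was called. The highest heart for both was WT Ang/PE replicate 3, with 4.29 CPM of Ccl2 and 3.07 CPM of Ccl7. Cxcl1, which attracts neutrophils, had 8 to 30 counts and was not called.

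The wider leukocyte genes were taken from 11 lists holding 177 entries, of which 137 were tested. In WT hearts 8 were called lower with saline than with no pump and 0 higher, a share of 5.84% that lay near the 4.22% called lower over all genes. In the list of other macrophage and phagocyte genes 5 of 32 tested were called lower. The leading ones were the Fc receptors Fcgr3, at 18.2 ± 5.80 CPM (SD, n = 4) without a pump and 8.79 ± 1.76 CPM (SD, n = 6) with saline (log2 fold change -1.05, adjusted p = 0.00797), and Fcgr2b (-0.93, adjusted p = 0.00874). The transglutaminase gene F13a1 of resident macrophages had -0.68 (adjusted p = 0.0184). Outside that list B2m, the light chain of class I molecules (-0.62, adjusted p = 0.0315), the adhesion gene Icam2 (-0.46, adjusted p = 0.0482) and the complement regulator Cd55 (-0.71, adjusted p = 0.0461) were called lower. The NF-kB pathway list had 0 of 18 and the inflammasome list 0 of 7 called.

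In MCT1KO hearts 7 of the 137 were called lower and 1 higher with Ang/PE than with saline, a share of 5.84% that lay near the 4.46% over all genes. Lower were the eotaxin gene Ccl11 (log2 fold change -2.83, adjusted p = 0.0132), Retnla, Mmp9, the interleukin 33 receptor gene Il1rl1, the class I gene H2-K1 and the complement genes Cfd and C2, at -7.62 for Cfd to -0.53 for H2-K1. Cfd is also a gene of fat cells, and the adipocyte genes fell in the same comparison. The MCT1KO saline hearts held 0.875 to 380 CPM of Cfd, 1.25 to 8.38 of C2 and 0.916 to 6.61 of Ccl11. They held 3.06 to 11.2 CPM of Retnla, 3.28 to 9.02 of Mmp9, 2.16 to 3.01 of Il1rl1 and 143 to 184 of H2-K1. Adipocyte genes summed to 1510 CPM in MCT1KO saline replicate 4 and 187, 176 and 306 CPM in replicates 1 to 3. Over all genes 0 were called with the atrial and adipocyte covariates and 1 with only the groups compared. Cx3cl1, the ligand of Cx3cr1, was higher, at 12.03 ± 2.35 CPM (SD, n = 4) with saline and 19.6 ± 3.85 CPM (SD, n = 5) with Ang/PE (0.71, adjusted p = 0.0272). Ccl11 was also called lower with Ang/PE than with no pump in MCT1KO hearts (-2.69, adjusted p = 0.0401), at 0.369 ± 0.243 CPM (SD, n = 5) and 2.35 ± 0.755 CPM (SD, n = 3). In the other 8 comparisons 0 of the 137 were called by edgeR.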

How the data were processed

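The authors deposited raw counts of reads per gene, with Ensembl identifiers, for 25 hearts (total RNA, ribosomal RNA depleted, stranded library kit, per the labels' protocols). Per the submitters' processing notes, cutadapt 1.16, STAR 2.7.9a, featureCounts 1.6.3, DESeq2 1.42.1 and the build GRCm39 were used. Their roles, the annotation and the strand setting are not given in the sources used here. Symbols matched 51948 of 56941 identifiers, and identifiers without one held 0.778% of reads.

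Counts were fitted with edgeR 4.0.16 (R 4.3.3): filterByExpr by group, TMM scaling, robust quasi-likelihood fit over all 6 groups with 19 residual degrees of freedom, Benjamini-Hochberg adjustment over 17682 genes within each of 11 comparisons (9 contrasts of groups and 2 interactions of genotype and treatment). The method was tested on simulated data. P-values measure the spread between these hearts, since the labels do not say how animals were bred or handled together. No replicate pair agreed within sampling noise (chi-square per degree of freedom of at least 3.33 over 43 pairs). The 3.33 was for MCT1KO saline replicates 1 and 2, which were the most alike, and the next lowest pair had 7.90. Same-numbered hearts did not deviate together in every pair of any comparison, so numbers were not taken to pair hearts. Alternatives were RLE scaling, DESeq2 1.42.0, no low-count filter, only the groups compared, a replicate block, a non-robust fit, mitochondrially encoded genes removed, Xist or atrial and adipocyte scores as covariates, and leaving out each heart. Leaving out the atrial-positive saline hearts, and keeping only hearts without Xist, were chosen after seeing the data.

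The members and gene lists were chosen with earlier results of these data known. By the naming rule, members have values per heart where called, or where they had the smallest p of their role in any comparison. From other lists, called genes are named, at most 3 per list and comparison. Values per heart of Timd4, Cxcl12 and Il1b, and the other members given by group values, were picked after their values were seen. Promoter windows are from RefSeq (GRCm38.p6), found by symbol for 29 of 39 members.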

Additional observations from a re-analysis of the deposited data

Results flagged for a closer look

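In the groups of 4 to 6 hearts, each tested member's highest and lowest heart in log2 CPM was examined with Dixon's test. In 14 of 144 tests the gap to the next heart was large against the group's range. The groups of 3 hearts were not tested. Chance flags about 1 in 20, or 7.2 of 144, and members of 1 role share their hearts, so the 14 are not independent. In MCT1KO Ang/PE replicate 2 the macrophage genes flagged were high, at 3.23 for Cd68, 6.27 for Csf1r, 5.53 for C1qb and 5.39 for C1qc. The other 4 hearts of that group held 23.8 to 28.8 CPM of C1qb, and this heart 46.0 CPM. In WT no-pump replicate 1 the macrophage genes flagged were low, at 4.87 for Cd163, 3.15 for Folr2, 4.83 for C1qa and 4.97 for C1qb. Chemokine genes stood apart in other hearts. Ccl2 was at 0.87 and Ccl7 at 1.18 in WT no-pump replicate 4, both high. Ccl2 was low at -1.30 in WT saline replicate 1, on 5 counts, and Ccl8 was low at -0.80 in MCT1KO Ang/PE replicate 1, also on 5 counts. Cxcl12 was low at 7.25 in MCT1KO saline replicate 4. The class II gene H2-Ab1 was high at 5.67 in WT saline replicate 6, which held 50.8 CPM against 19.9 to 28.3 CPM in the other 5.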

How the results depend on the processing

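The 10 members called between saline and no pump in WT hearts stayed negative in all alternatives run, while the number of members called moved from 10 to 2 with no low-count filter (Cd163 and Folr2), 2 with Xist as a covariate, 0 with atrial and adipocyte score covariates, 0 without the atrial-positive saline hearts and 0 among hearts without Xist. Without 1 heart at a time it was 0 to 15. With the replicate block it was 5, and the block called no member in the other comparisons. It did not change with RLE scaling and was 13 with DESeq2. DESeq2 called 1 member for MCT1KO against WT with no pump and 3 for Ang/PE against saline in MCT1KO. It called 1 each for Ang/PE against no pump in WT and in MCT1KO, and 8 for the interaction of genotype and saline. The fit reported called 0 members in each. Over all genes DESeq2 called 104, 1200, 35, 395 and 369 in these comparisons, in that order. Covariates for atrial and adipocyte scores gave 1 member (Cxcl12) among 175 genes for Ang/PE against no pump in MCT1KO. Fitting only the groups compared gave 3 members among 945 genes for Ang/PE against saline in WT. Without 1 heart, counts were 0 to 2 for Ang/PE against saline in MCT1KO and 0 to 11 for the interaction of genotype and saline. Between saline and no pump in MCT1KO, signs turned with Xist as a covariate for C1qa (log2 fold change -0.058), Ccl8 (-0.0702) and Ccl9 (-0.25), and for Ccl8 with the atrial and adipocyte covariates (-0.56) and without MCT1KO no-pump replicate 2 (-0.086, the lowest value without 1 heart, the highest being 0.80). The cause was not tested.

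Over all genes, saline against no pump in WT had 1168 called and 509 with no low-count filter, 527 with the block, 547 with Xist, 1956 with DESeq2, 2287 with only the groups compared and 60 to 2234 without 1 heart. Ang/PE against saline in MCT1KO had 788 and 452 with no low-count filter, 1200 with DESeq2, 1 with only the groups compared and 39 to 1541 without 1 heart. With the atrial and adipocyte covariates both fell to 0. Ang/PE against saline in WT had 3 called and 649 with DESeq2, 945 with only the groups compared. Lymphocyte, neutrophil and cytokine genes with few counts are limited by depth.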
